A study of Mus musculus with 2 samples.

Results

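The histone genes of mouse AML12 cells were compared between control cells and cells made senescent with hydrogen peroxide. Members were all genes whose GENCODE M21 symbol began with Hist and a cluster number, H2af, H3f3 or H1f and whose reads in both libraries summed to 10 or more, which gave 42 of the 14383 genes with that many reads. Of these, 29 were genes of the Hist clusters, 9 were protein-coding histone variants, and 4 were RNAs taken by their symbol alone, namely 3 processed pseudogenes and 1 antisense RNA. A further 46 genes fitted the symbols but had fewer than 10 reads, among them 38 Hist genes, of which 9 had no read.

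AML12 is a non-transformed mouse hepatocyte line derived from a mouse with a transforming growth factor alpha transgene, and the labels describe it as liver of a male CD-1 mouse of 3 months. Control cells were untreated. Senescent cells received peroxide on 6 days, in daily exposures of 1 h that each left 23 h to recover, with a first dose of 1 mM and later doses of 750 μM. RNA of 3 samples per condition was pooled into 1 library per condition, so none of the differences below could be checked against replicates, and p-values are not given. The control library held 28021941 counted reads and the senescent library 25738075, after selection of RNA with a poly(A) tail.

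Histones package DNA into nucleosomes, each built around a core of H2A, H2B, H3 and H4, with H1 binding the linker between them. Most of the replication-dependent histones are made in S phase from the Hist clusters. The mRNAs of these clusters typically lack introns and end in a stem-loop in place of a poly(A) tail. Variant histones such as H3.3, H2A.Z and H1.0 are made outside S phase as well, from mRNAs with a poly(A) tail. Some Hist genes are also known to yield polyadenylated mRNAs in cells that leave the cell cycle. Reads on Hist genes in these libraries therefore measured only what passed poly(A) selection and not the whole of the Hist mRNA.

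The stem-loop is what sets the classes apart in sequence, so each of its 6 distinct forms is shown for 1 gene, from the GENCODE M21 transcripts on GRCm38. It was searched in the sense strand as 6 paired bases around a loop of 4. The stem had to begin with GG, the loop with TT, and AG had to follow the loop. Capitals mark the 16 bases of the stem-loop between 5 flanking bases on each side.
Hist1h1c (chr13:23739512-23739527, plus strand): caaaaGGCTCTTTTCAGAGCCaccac
Hist1h3e (chr13:23561903-23561918, minus strand): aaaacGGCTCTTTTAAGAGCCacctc
Hist1h4h (chr13:23531458-23531473, plus strand): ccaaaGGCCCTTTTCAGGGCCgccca
Hist1h4i (chr13:22040966-22040981, minus strand): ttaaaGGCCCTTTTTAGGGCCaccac
Hist1h4b (chr13:23757366-23757381, plus strand): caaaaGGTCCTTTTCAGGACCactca
H2afx (chr9:44335240-44335255, plus strand): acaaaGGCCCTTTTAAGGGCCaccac
The coordinates are those of the stem-loop itself, which lies in the 3′ untranslated region of each gene. The form of Hist1h1c was held by 14 members, including every H1, H2A and H2B member with a stem-loop except the variant H2afx. The form of Hist1h4h was held by 4 members, that of Hist1h4i by 2 and that of Hist1h4b by 2, all of them H4 genes.

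A stem-loop was found in 23 of 29 Hist genes and in 1 of 9 variants, H2afx, which encodes the H2A.X of DNA damage signalling. Among all measured genes with an annotated transcript it was found in 28 of 14278, or 0.196%. These 28 include the 23 Hist genes and H2afx. In the Hist genes it began 24 to 58 bases after the stop codon, with a median of 32. Hist1h2bc and Hist2h2be, which with Hist1h1c had the most reads of the Hist genes, held no match to this pattern in their annotated transcripts. Of the 23 Hist genes, 15 had a transcript annotated to run more than 100 bases past the stem-loop, and 8 had transcripts that ended within 100 bases of it. A spliced transcript was annotated for 3 of the 29 Hist genes, namely Hist1h2bc, Hist1h2be and Hist1h2bq.

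The variants carried nearly all histone reads. Hist genes of any count took 2564 of 83940 histone reads in the control library, or 3.05% (exact binomial interval 2.94% to 3.17%). In the senescent library they took 1761 of 55926, or 3.15% (3.01% to 3.3%), so the intervals of both libraries overlapped. Histone reads as a whole made up 0.300% of the control library and 0.217% of the senescent library.

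**Figure D1:**
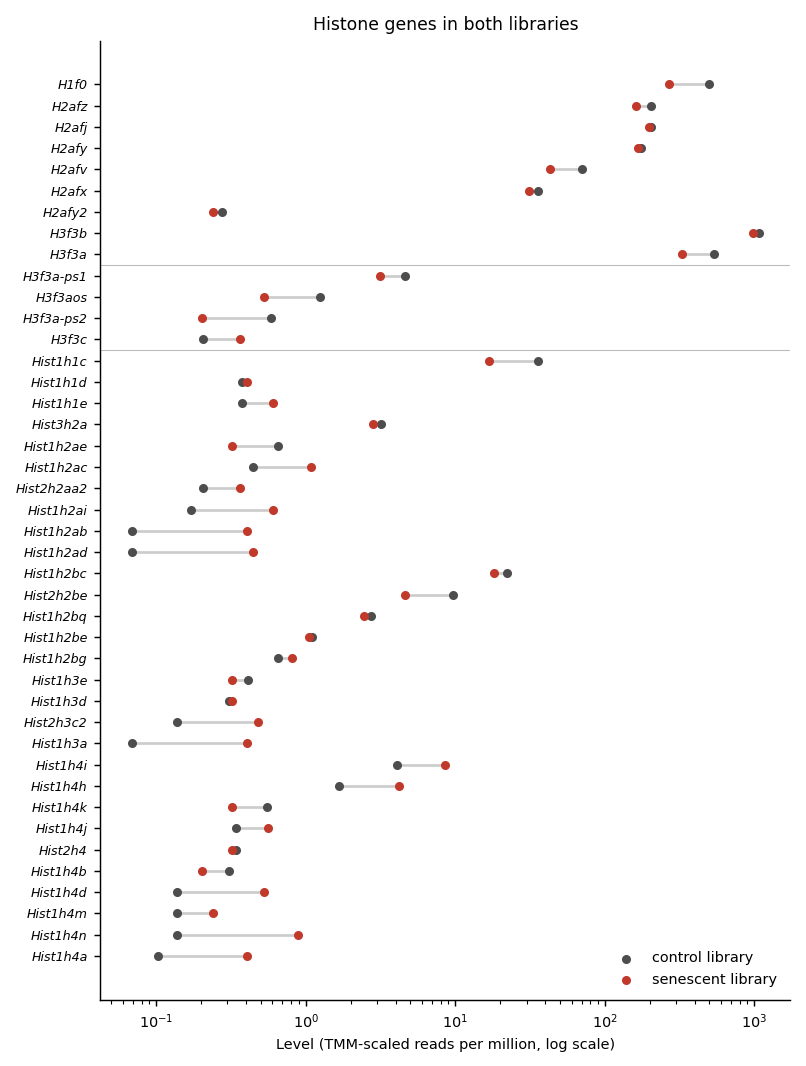
Level of each of the 42 histone genes in the control (grey) and senescent (red) library, in TMM-scaled CPM on a log axis, with variants at the top, pseudogenes and the antisense RNA in the middle and Hist genes below. Variants other than H2afy2 lay between 31.0 and 1075 CPM, and every Hist gene lay at 35.7 or lower in both libraries.

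Ratios below are log2 of senescent over control after TMM scaling with a prior count of 1, and intervals are 95% Clopper-Pearson intervals, which reflect counting error alone. The terms higher and lower are used for ratios past 1.5 on the log2 scale whose interval held no 0. Among all genes, 2.71% were higher and 5.6% lower by this rule, and the median log2 ratio was -0.02. Of the 9 variants, 0 were higher and 0 were lower, and their median log2 ratio was -0.21. At a log2 ratio past 1, which 5.09% of all genes passed upwards and 9.98% downwards, the counts were also 0 and 0. Intervals of 6 variants lay wholly below 0 and those of 3 held 0, with none wholly above. Of all 14383 genes, 4977 had intervals below 0, 4888 above 0, and 4518 had intervals that held 0.

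H1f0, the linker histone H1.0 that accumulates in cells leaving the cycle, is a single exon on chr15:79028450-79030504. It had 14576 control reads and 6662 senescent reads (-0.90, -0.94 to -0.86), the lowest ratio among the variants. H1f0 made up 93.2% of all H1 reads in control and 93.7% in senescent cells.

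H3.3, the replacement H3 put into chromatin outside replication, is encoded by H3f3a (chr1:180800832-180813943) and H3f3b (chr11:116021912-116027962), whose proteins are identical. H3f3a had 15526 control reads and 8089 senescent reads (-0.71, -0.75 to -0.67). H3f3b had 31271 and 24451 reads (-0.13, -0.15 to -0.10). The ratio of H3f3a lay below that of H3f3b by more than counting error, and its share of the reads of both genes was 33.2% (32.8% to 33.6%) in the control and 24.9% (24.4% to 25.3%) in the senescent library. Per kilobase of exon, H3f3b was at a TMM-scaled CPM of 361 in control and 331 in senescent cells, the highest level of all members, and H3f3a at 152 and 93.1.

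The H2A.Z genes, whose products occupy promoters and are exchanged by dedicated remodellers, both had ratios below 0. H2afz had 5947 control reads and 4030 senescent reads (-0.33, -0.39 to -0.27). H2afv had 2056 and 1067 reads (-0.72, -0.82 to -0.61), and the interval of H2afv lay below that of H2afz. H2afx had 1039 and 768 reads (-0.21, -0.34 to -0.07).

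The remaining H2A variants had intervals that held 0. H2afj, which encodes H2A.J, had 5893 control reads and 4936 senescent reads (-0.03, -0.08 to 0.03). H2afy, which encodes macroH2A1, had 5060 and 4155 reads (-0.05, -0.11 to 0.00 after rounding). With total-count scaling in place of TMM, H2afj was at -0.13 and H2afy at -0.16, each below its interval given here. H2afy2, which encodes macroH2A2, had 8 and 6 reads, too few to show a difference at this depth. H1fx, another linker histone, had no read in either library.

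Summed over the 9 variants, the control library held 81376 reads and the senescent library 54164, which gave -0.36 (-0.37 to -0.34). Without H1f0 it was -0.26 (-0.28 to -0.25), and without both H3.3 genes -0.45 (-0.47 to -0.42). The sum thus remained below 0 without the genes of most reads.

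The 4 other RNAs belong to the H3.3 genes. H3f3a-ps1, a processed pseudogene, had 135 control reads and 78 senescent reads (-0.56, -0.98 to -0.15). H3f3aos, on the opposite strand across the start of H3f3a, had 36 and 13 reads (-1.18, -2.28 to -0.29). H3f3a-ps2 had 17 and 5 reads and H3f3c 6 and 9. Of the 100-base windows of H3f3a-ps1, 83.6% were unique, against 31.1% for H3f3a-ps2 and 43.3% for H3f3c, and both H3f3a pseudogenes share sequence with H3f3a. All windows of H3f3aos were unique, and it overlaps H3f3a only at its start. The use of strand and of reads with several matches is not given in the sources used here, so reads from shared or overlapping sequence are uncertain.

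**Figure D2:**
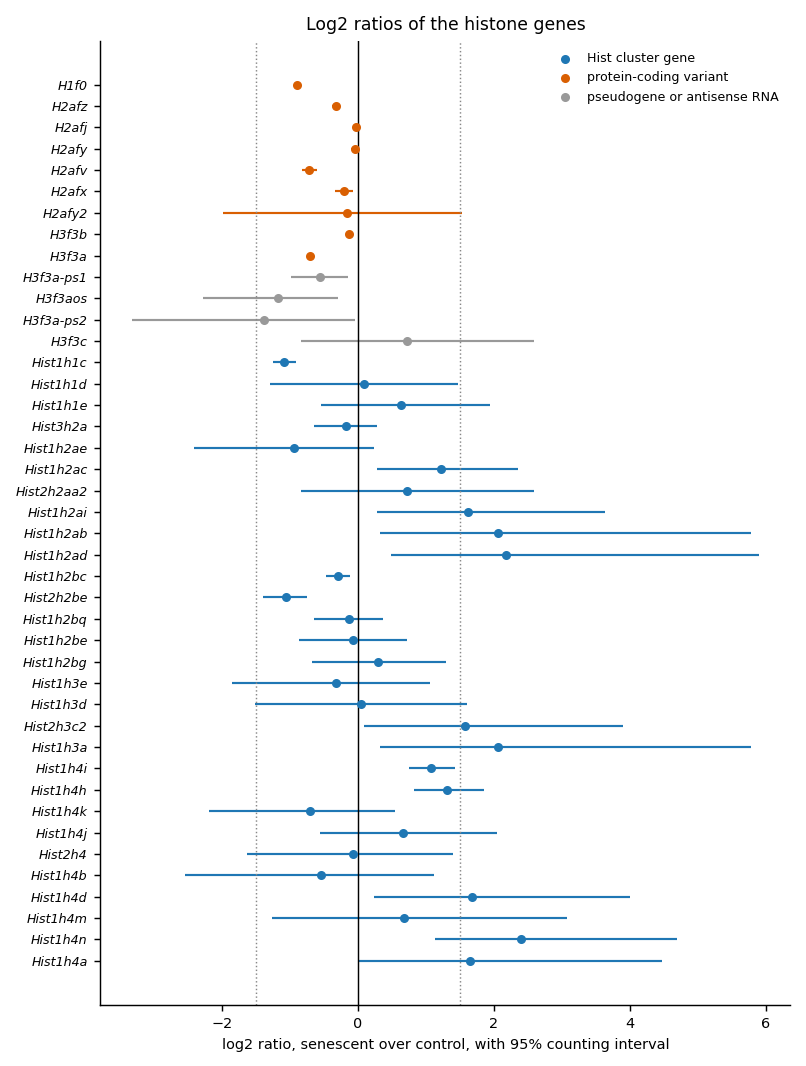
Log2 ratio of senescent over control for each of the 42 genes (points) with its 95% counting interval (lines), coloured by class, with dotted lines at -1.5 and 1.5. The 9 variants lay between -0.90 and -0.03, and the 29 Hist genes spread from -1.09 to 2.40 with intervals that widened as reads fell.

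The log2 ratios of the Hist genes spread more widely than those of the variants, from -1.09 to 2.40 against -0.90 to -0.03. Of 29, 8 were higher past 1.5 and 0 lower, against 2.71% and 5.6% of all genes. Past 1, 11 were higher and 2 lower, against 5.09% and 9.98%. Intervals of 11 Hist genes lay above 0, those of 3 below 0, and those of 15 held 0. For all 14383 genes these counts were 4888, 4977 and 4518. Their median log2 ratio was 0.63, or 0.83 above that of the variants, and it depended on the genes of few reads. It was 0.14 over genes with at least 1 read, 0.08 over genes with at least 50% unique windows and -0.18 over genes with at least 100 reads. The difference from the variants was then 0.33, 0.29 and 0.09.

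All 8 of the higher genes had few reads, 2 to 5 in the control and 10 to 22 in the senescent library. Of the H2A genes, Hist1h2ab had 2 control reads and 10 senescent reads (2.06, 0.32 to 5.78), Hist1h2ad 2 and 11 (2.18, 0.49 to 5.90) and Hist1h2ai 5 and 15 (1.62, 0.28 to 3.63). Of the H3 genes, Hist1h3a had 2 and 10 (2.06, 0.32 to 5.78) and Hist2h3c2 4 and 12 (1.58, 0.09 to 3.90). Of the H4 genes, Hist1h4a had 3 and 10 (1.65, 0.01 to 4.47), Hist1h4d 4 and 13 (1.68, with 0.24 as the lower end) and Hist1h4n 4 and 22 (2.40, 1.13 to 4.69). The lower ends of these intervals show how little the counts fix, from 0.01 for Hist1h4a to 1.13 for Hist1h4n. Among all genes with 10 to 99 reads, 8.05% were higher and 13.3% lower, with a median of -0.20. Each of these Hist genes met the minimum of 10 reads only because of its senescent reads, so the count and the median are descriptions and no support for a direction. Their reads can also be shared, since under 50% of the 100-base windows were unique to the gene in 5 of the 8.

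The 29 Hist genes with 1 to 9 reads, which that minimum leaves out, held 47 control reads and 54 senescent reads (0.43, -0.16 to 1.03). Over all 67 Hist genes in the table, with no minimum, the reads were 2564 and 1761, which gave -0.31 (-0.40 to -0.22).

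That sum rested on few genes. Hist1h1c, Hist1h2bc and Hist2h2be held 76.9% of Hist reads in control and 55.8% in senescent cells. The 29 members together had a log2 ratio of -0.33 (-0.42 to -0.24), and without Hist1h1c it was 0.03 (-0.08 to 0.14). Without all 3 of these genes the other Hist genes of any count had 593 control reads and 778 senescent reads (0.62, 0.47 to 0.78).

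**Figure D3:**
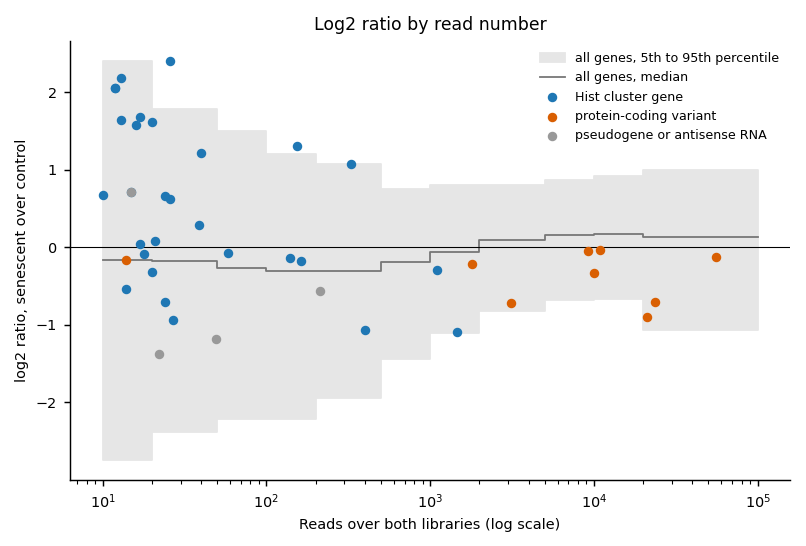
Log2 ratio of senescent over control against reads over both libraries (log axis) for the histone genes (points), over the 5th to 95th percentile (grey band) and median (line) of all genes in bins of reads. Hist genes with 10 to 99 reads summed to a log2 ratio of 0.64 and those with 100 or more to -0.46, and the band is widest at the left, from -2.74 to 2.41 for genes with 10 to 19 reads.

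By family, the linker histones of the Hist clusters had a summed ratio below 0 (-1.03, -1.19 to -0.87 at any count). Hist1h1c, which encodes H1.2 and is a single exon on chr13:23738808-23740367, had 1039 control reads and 417 senescent reads (-1.09, -1.25 to -0.92). Hist1h1d had 11 and 10 reads and Hist1h1e 11 and 15, both with intervals that held 0. Hist1h1c was thus nearly the whole of the family, which took 41.5% of Hist reads in control and 25.3% in senescent cells. Hist1h1e overlaps Hist1h2be on the same strand, so their reads are uncertain.

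The H2B genes were led by Hist1h2bc and Hist2h2be. Hist1h2bc (chr13:23684199-23692908) had 649 control reads and 451 senescent reads (-0.29, -0.47 to -0.12). Hist2h2be (chr3:96221119-96223738), all of whose sequence windows were unique, had 283 and 115 reads (-1.06, -1.40 to -0.75). The other 14 H2B genes, at any count, together had 144 and 120 reads (-0.03, -0.40 to 0.33), so the negative H2B sum (-0.42, -0.56 to -0.28) lay in the leading genes.

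The H4 genes had ratios above 0 in sum, though the leading genes did not pass 1.5. Hist1h4i (chr13:22040636-22041362) had 118 control reads and 213 senescent reads (1.07, 0.75 to 1.42), and Hist1h4h (chr13:23531050-23531519) had 49 and 105 (1.31, 0.83 to 1.85). These are the only Hist genes with at least 100 reads whose ratio passed 1 upwards. Of the other H4 members, Hist1h4j had 10 and 14 reads, Hist1h4k 16 and 8, Hist1h4b 9 and 5, Hist2h4 10 and 8 and Hist1h4m 4 and 6, all with intervals that held 0. Only 19.3% of the windows of Hist1h4n were unique. Over all 13 H4 genes the reads were 230 and 409 (1.06, 0.82 to 1.30), and without Hist1h4i and Hist1h4h they were 63 and 91 (0.76, 0.28 to 1.25).

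The H2A and H3 genes had few reads. The 20 H2A genes together had 157 control reads and 159 senescent reads (0.25, -0.08 to 0.58), of which Hist3h2a, which overlaps Trim17 on the same strand, had 93 and 70. The 12 H3 genes had 36 and 62 reads (1.01, 0.40 to 1.65). Hist1h2ac had 13 and 27 reads (1.22, 0.28 to 2.36), whereas Hist1h2ae had 19 and 8 (-0.94, -2.42 to 0.24). Within H3, Hist1h3d had 9 and 8 reads and Hist1h3e 12 and 8. At any count the H2A interval held 0 and the H3 interval did not. Over the 4 H3 members with 10 or more reads, the reads were 27 and 38 (0.72, -0.03 to 1.49), so that interval held 0 as well. The single genes of both families lay on either side of 0.

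**Figure D4:**
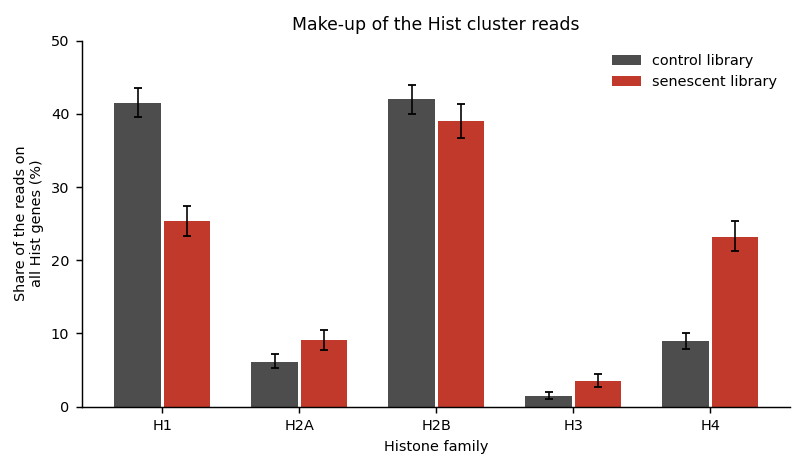
Share of the reads on all Hist genes taken by each histone family in the control (grey) and senescent (red) library, in percent, with 95% exact binomial intervals. H4 took 8.97% in control and 23.2% in senescent cells, H1 took 41.5% and 25.3%, and the H2B intervals overlapped.

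Sums of the classes by annotated 3′ end rested in part on single genes. Genes of any count whose transcripts ended within 100 bases of the stem-loop had 96 control reads and 192 senescent reads (1.23, 0.87 to 1.6). Those annotated to run further had 1406 and 879 reads (-0.45, -0.57 to -0.33), and those without a stem-loop 1062 and 690 (-0.39, -0.53 to -0.25). Without Hist1h4h the first class had 47 and 87 reads (1.12, 0.59 to 1.66). Without Hist1h1c the second had 367 and 462 (0.56, 0.36 to 0.76), so its direction turned. Without Hist1h2bc and Hist2h2be the last had 130 and 124 (0.16, -0.21 to 0.53). A poly(A) signal (AATAAA or ATTAAA, sense strand, last 50 bases) was found in all 9 variants and in 11 of 29 Hist members. The 11 had 1735 control reads and 1047 senescent reads (-0.50, -0.61 to -0.39), and the other 18 had 782 and 660 (-0.02, -0.17 to 0.14). Without Hist1h1c and Hist2h2be the former had 413 and 515 (0.55, 0.36 to 0.74), and without Hist1h2bc the latter had 133 and 209 (0.88, 0.56 to 1.21). The classes were made from the annotation and not from the reads, so which end the reads came from was not measured.

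RNAs listed as lacking a poly(A) tail, in whole or in part, were looked at beside these ratios. Of 11 such RNAs, 4 were in the table. Gm42418, which overlaps ribosomal RNA repeats, had 53082 control reads and 206929 senescent reads (2.19), and Gm26917, also linked to such repeats, had 1414 and 2487 (1.04). Malat1 and Neat1, which are nuclear RNAs, had log2 ratios of 0.04 and -0.13. Malat1 and the long form of Neat1 have an A-rich stretch in place of a tail, and counts per gene do not tell the forms of Neat1 apart. The part of these differences in the ratios of the Hist genes was not tested.

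Upstream sequence is shown for Hist1h1c, which had the lowest log2 ratio of the Hist genes, and for Hist1h4i and Hist1h4h, the H4 genes of most reads. The 120 bases before the RefSeq start on GRCm38.p6 are given, with capitals for the H1 box (AAACACA) and the CCAAT box.
Hist1h1c (chr13:23738687-23738806, plus strand): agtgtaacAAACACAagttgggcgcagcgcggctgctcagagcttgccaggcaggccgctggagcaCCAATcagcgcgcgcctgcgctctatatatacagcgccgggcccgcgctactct
Hist1h4i (chr13:22041363-22041482, minus strand): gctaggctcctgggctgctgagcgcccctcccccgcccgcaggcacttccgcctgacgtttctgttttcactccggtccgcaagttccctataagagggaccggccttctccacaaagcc
Hist1h4h (chr13:23530924-23531043, plus strand): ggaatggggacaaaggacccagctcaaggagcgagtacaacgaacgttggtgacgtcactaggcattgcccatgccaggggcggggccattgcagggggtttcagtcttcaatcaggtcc
Both boxes stood in the window of Hist1h1c, and neither was found in those of Hist1h4i and Hist1h4h. The 250 bases before the start were searched on both strands for 34 members with a match, and likewise for all promoters. The H1 box was in 3 of 3 Hist H1 promoters and in 6.25% of all promoters, and CCAAT was in 17 of 25 Hist promoters, 2 of 9 H4 promoters and 33.8% of all. TATAAA was in 12 of 25 Hist promoters against 12.4% of all, and the octamer ATTTGCAT in 5 of 25, 4 of them H2A, against 1.6%. These letter matches are descriptions of the windows, and the octamer can hold no other of these motifs.

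Genes that make and carry histones had ratios on both sides of 0. Of 21 genes of histone mRNA transcription, processing and decay, 0 passed 1.5 in either direction, against 2.71% upwards and 5.6% downwards of all genes, with a median of 0.14. Intervals of 12 lay above 0 and those of 6 below, against 4888 and 4977 of all 14383 genes. Slbp, which binds the stem-loop, had 1280 control reads and 1203 senescent reads (0.14). Npat, which activates the Hist genes, was at 0.35, Lsm11 of the U7 particle at 0.67, the cap-binding subunit genes Ncbp1 and Ncbp2 at 0.62 and -0.40, Upf1 of mRNA decay at 0.59, and Zfp473, another U7-linked factor, at 1.39 from 11 and 26 reads.

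Chaperone lists also had no gene past 1.5, against 2.71% upwards and 5.6% downwards of all genes. The 11 replication-coupled chaperones of H3 and H4 had a median of 0.02, with Asf1b at -0.58 and Rbbp7 at 0.18. The 8 chaperones of H3.3 had a median of -0.11, with Dek at -0.55, Hira at -0.50, Asf1a at -0.48 and Daxx at 0.23. The 12 carriers and remodellers of H2A-H2B and H2A.Z had a median of 0.13, with Ep400 at 0.53. Intervals of 7 of these 12 lay above 0, those of 0 below 0, and those of 5 held 0. Among the replication-coupled chaperones 4 lay above and 5 below, and among those of H3.3, 3 above and 5 below. Of all 14383 genes, 4888 lay above 0, 4977 below, and 4518 held 0.

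Cenpa, the centromeric H3 variant whose symbol the member rule does not take, had 565 control reads and 302 senescent reads (-0.67). Of 17 S phase genes, 0 were higher and 0 lower past 1.5, against 2.71% and 5.6% of all genes, and the median was -0.34. Intervals of 5 lay above 0, those of 9 below 0, and those of 3 held 0. The counts over all 14383 genes were 4888, 4977 and 4518. The highest ratio was that of Top2a, at 0.18. Tyms, which makes thymidylate, was at -1.01, the cyclin E genes Ccne1 and Ccne2 at -0.86 and -0.82 and the proliferation marker Mki67 at -0.79. Of the 6 replicative helicase genes, Mcm5 was at -0.34 and the others between 0.02 for Mcm2 and 0.17 for Mcm7. In bulk RNA, fewer cells in S phase and less RNA per cell cannot be told apart.

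**Figure D5:**
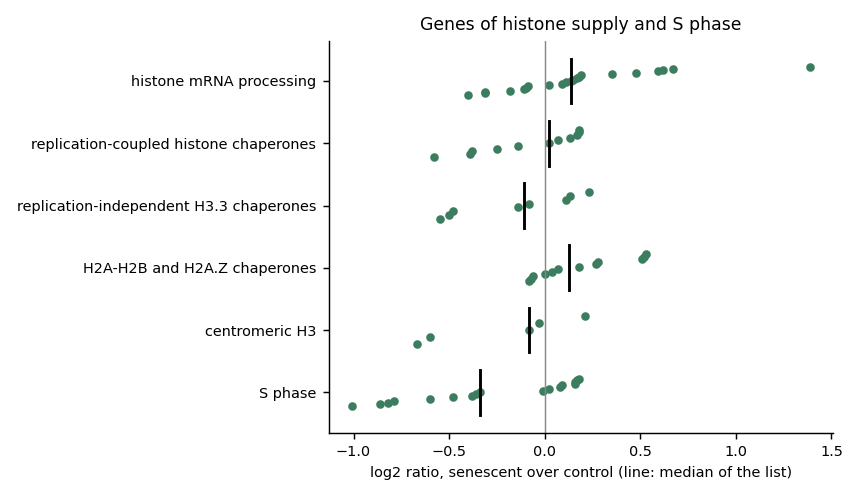
Log2 ratio of senescent over control for each gene (points) of 6 lists of histone supply and S phase, with the median of each list (line). Medians ran from -0.34 for S phase to 0.14 for histone mRNA processing, and the points of each list spread to both sides of 0.

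Markers of the cells were checked in both libraries. Hepatocyte genes were present, with Hnf4a at 8187 control reads and 7705 senescent reads and Krt8 at 119403 and 144783, while 4 genes of secreted proteins had fewer senescent reads than control reads beyond counting error. Alb had 32076 and 2917 (-3.23), Apoa1 2026 and 197 (-3.13), Ttr 23146 and 10486 (-0.91) and Serpina1a 102 and 32 (-1.42). Of these, Alb and Apoa1 were lower past 1.5, as were 5.6% of all genes. Of 6 macrophage markers, Ptprc had 27 and 76 reads (1.68, 1.07 to 2.41) and Csf1r 15 and 40 (1.58, 0.76 to 2.61). Both were higher past 1.5, as were 2.71% of all genes. Cd68 had 34 and 40 reads (0.45), Cd14 had 5551 and 1879 (-1.33), and Adgre1 and Clec4f were at 0 in both libraries. Endothelial markers had 0 to 5 reads each, and fibroblast and stellate markers 0 to 21. Of the latter only Col1a1 reached 10 reads, with 21 and 1 (-3.29, -9.53 to -1.53), and it was lower past 1.5. The part of these differences in the histone ratios was not tested.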

How the data were processed

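RNAseq was performed by the study on poly(A)-selected RNA of control and senescent AML12 cells, 3 samples pooled per library. The authors deposited a read count per gene, not normalized, for 35275 Ensembl identifiers. The submitters' processing notes name CASAVA, STAR, DESeq2, edgeR and mm10. The counting tool, annotation, strand use and treatment of reads with several matches are not given in the sources used here. Each column was matched to a condition by its initial letter, O for Old and Y for Young. Symbols, positions and transcripts were taken from GENCODE M21 and promoters from RefSeq (GRCm38.p6), and 34490 genes were paired with a symbol.

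Counts were scaled by TMM (edgeR 4.0.16, R 4.3.3), with factors of 1.04 and 0.964. Ratios and exact binomial intervals came from scipy 1.17.1, numpy 2.4.6 and pandas 2.3.3 under Python 3.11.15, and plots from matplotlib 3.10.9. Reads carry no molecular identifiers and may be PCR copies, so intervals cover counting error only. With 1 library per condition no test was possible. Ratios and calls were tested on simulated data. Alternatives were total-count, DESeq2 (1.42.0) and upper-quartile scaling, minimum reads of 1 or 100, prior counts of 0.125 or 5, thresholds of 1 or 2, intervals widened for an assumed coefficient of variation of 0.1 or 0.4, genes with at least 50% unique windows, and Hist genes with a stem-loop. Any histone member could be named, and of each list its largest changes. Members and lists were chosen with earlier results of these data known.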

Additional observations from a re-analysis of the deposited data

How the results depend on the processing

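Of 99 values of the class summaries under alternatives, 77 stayed within 1.5 times a count or a median of the same sign, or inside the counting interval of a sum, and none of the 75 single-gene values changed sign, though 7 left the gene's own interval, all in variants under total-count or upper-quartile scaling. The 8 Hist genes higher past 1.5 became 0 at a minimum of 100 reads, 1 with a prior count of 5, 4 at a threshold of 2, 1 with an assumed coefficient of variation of 0.4 and 3 among genes with at least 50% unique windows. In an alternative chosen after seeing the data, Hist genes with over 3 reads in each library, 4 were higher. At a threshold of 1, 2 Hist genes were lower in place of 0. The summed Hist log2 ratio of -0.33 was -0.44 with total-count scaling, which shifts the median of all genes by -0.11, and -0.46 at a minimum of 100 reads. The summed variant ratio of -0.36 was -0.46 with total-count and -0.40 with upper-quartile scaling. The Hist median of 0.63 turned to -0.18 at a minimum of 100 reads, was 0.14 at 1 read and 0.40 with a prior count of 5, and was 0.08 both with unique windows and with over 3 reads in each library. Its difference from the variant median, 0.83, was 0.09 at 100 reads, 0.33 at 1 read and 0.29 in both of the latter. The variant median of -0.21 was -0.31 with total-count scaling and -0.33 with the pseudogenes and the antisense RNA counted as variants, also chosen after seeing the data. Fewer genes entered under the stricter minimum and the unique windows, more at 1 read, and otherwise the cause was not tested. A stem-loop just past an annotated end could not be searched. No paired analysis was possible because each condition has 1 library. Depth limits the Hist genes, of which 22 of 29 had under 100 reads over both libraries.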
